A study of Mus musculus with 18 samples.

Results

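Untreated delta cells were compared with untreated beta cells of the mouse pancreatic islet by RNA sequencing, across every gene counted. The members were chosen by their labels: 3 libraries titled as delta cell controls and 3 titled as beta cell controls, 6 of the 18 libraries of the series. The other 12 hold alpha cells with and without interferon-gamma (IFNγ), and delta and beta cells exposed to IFNγ at 5 ng/mL for 20 h. Islets came from male C57BL/6JRj mice of 12 weeks, kept in culture without IFNγ in the control groups, dispersed to single cells and sorted by fluorescence. Cells positive for EpCam and negative for CD45, TER119, CD31 and the dead-cell dye propidium iodide were kept. Within these the delta gate took cells high for CD24 and the beta gate cells low for CD24 and positive for CD71. The antibody panel also held CD49f, and the sources used here do not state its threshold for either gate. The strain is the same in every group. The sources used here do not state how many animals went into each sort, so p-values measure the spread between these libraries.

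Islets hold several endocrine cell types that share a developmental origin and a secretory machinery. Beta cells secrete insulin when glucose rises, and delta cells secrete somatostatin, which acts on neighbouring beta and alpha cells through inhibitory receptors. Delta cells are known for long processes that reach their neighbours, for a receptor to the stomach hormone ghrelin, and for electrical activity that is coupled to that of beta cells.

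The 6 libraries held 6584262 to 8809998 expected counts each, and 17338 genes passed the filter on low counts. The unit of level is CPM, the count of a gene after the libraries were brought to one size, and differences are given as log2 fold changes of delta minus beta, so that positive values are higher in delta cells. Cell type was the main axis: the first principal component carried 65.7% of the variance and set the delta libraries (-83.1 to -76.6) apart from the beta libraries (73.0 to 91.0). Spearman's rho across the tested genes was 0.956 to 0.980 between delta libraries, 0.954 to 0.978 between beta libraries and 0.877 to 0.897 between the types, as a description of libraries that share genes. Counts on ribosomal RNA genes took 6.72% to 9.72% of the delta and 7.74% to 30.0% of the beta libraries, and the mitochondrial genome took 3.75% to 6.62% and 5.71% to 9.46%. The data of beta control 3 are named for papain, a dissociation enzyme, where the other beta controls are named for CD71, and the sources used here do not say how that sample was prepared. A date shared between the types is carried only by delta control 3 and beta control 2. Delta control 1, delta control 2 and beta control 3 are each alone on their file-name date. A fit with the date as a fixed term therefore compares delta control 3 with beta controls 1 and 2.

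The defining markers separated the groups in the direction of their labels. Sst, the somatostatin gene (ENSMUSG00000004366, chromosome 16, 23889573 to 23890958, minus strand, GRCm38), stood at 35920, 34770 and 14720 CPM in the delta libraries and at 68.8, 55.7 and 0 CPM in the beta libraries. Hhex, a homeobox transcription factor that maintains delta cells (ENSMUSG00000024986, chromosome 19, 37434810 to 37440731, plus strand), stood at 192, 199.8 and 226 CPM against 0.712, 0.117 and 0 CPM. The groups did not overlap for either gene, and delta control 3 had the lowest Sst level of its group. The log2 fold change was 9.42 (SE 1.30, adjusted p = 2.87e-05) for Sst and 9.49 (SE 0.52, adjusted p = 2.18e-09) for Hhex.

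Ins1, 1 of the 2 mouse insulin genes (ENSMUSG00000035804, chromosome 19, 52264297 to 52265476, plus strand), gave 20.9, 24.6 and 84.6 CPM in the delta and 14920, 10730 and 12160 CPM in the beta libraries. Mafa, a transcription factor of mature beta cells that binds the insulin promoter (ENSMUSG00000047591, chromosome 15, 75745490 to 75748228, minus strand), gave 0.668, 0.324 and 1.66 CPM against 157, 182 and 489 CPM. Delta control 3 held more of both than the other delta libraries, and no delta library came near a beta library. Ins1 was lower in delta cells by a log2 fold change of -8.18 (SE 0.98, adjusted p = 5.49e-06) and Mafa by -8.26 (SE 0.98, adjusted p = 4.89e-06).

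**Figure D1:**
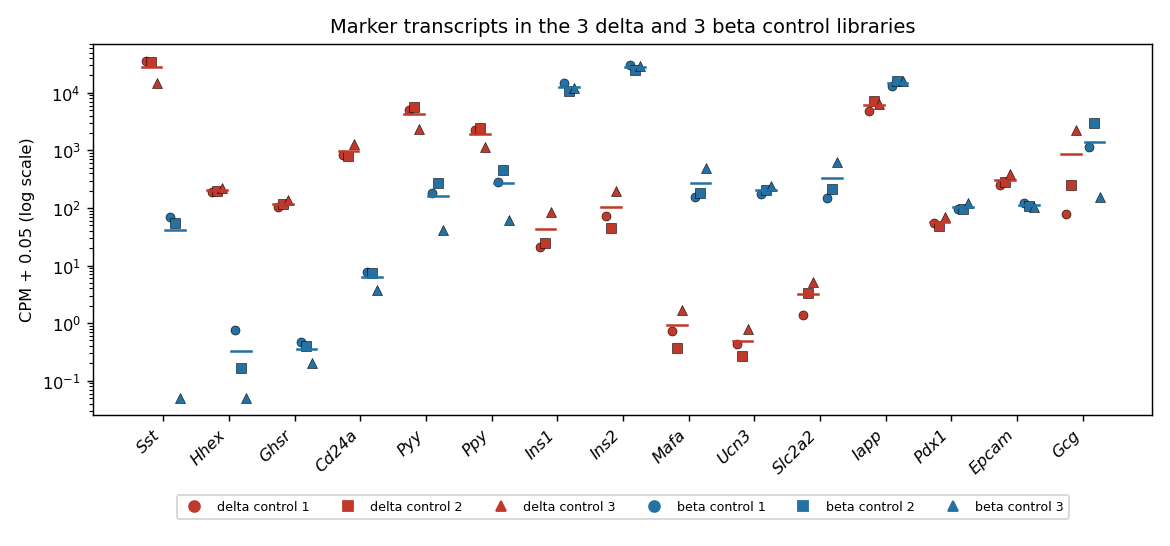
Levels of 15 marker transcripts in each control library, in CPM with 0.05 added so that values of 0 can be drawn on the log axis; each symbol is 1 library, red for delta and blue for beta, and each bar is a group mean. Sst, Hhex, Ghsr and Cd24a sit high in the 3 delta libraries, Ins1, Ins2, Mafa, Ucn3 and Slc2a2 sit high in the 3 beta libraries, and Gcg overlaps between the groups.

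The 250 bases upstream of the RefSeq start (GRCm38.p6) are printed for Sst and Hhex, the delta markers, and for Ins1 and Iapp, hormone genes of beta cells, to set marker and hormone genes of both types beside their promoters. They lie at chr16:23890845-23891094 on the minus strand for Sst, and on the plus strand at chr19:37434591-37434840 for Hhex, chr19:52264047-52264296 for Ins1 and chr6:142298175-142298424 for Iapp. Capitals mark the cAMP response element TGACGTCA and the insulin E box GCCATCTG, both searched on both strands.
Sst: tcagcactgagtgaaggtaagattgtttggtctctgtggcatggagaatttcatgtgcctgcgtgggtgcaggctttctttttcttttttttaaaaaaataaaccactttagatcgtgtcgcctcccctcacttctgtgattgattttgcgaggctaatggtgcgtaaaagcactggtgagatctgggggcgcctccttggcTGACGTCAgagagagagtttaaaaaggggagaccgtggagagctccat
Hhex: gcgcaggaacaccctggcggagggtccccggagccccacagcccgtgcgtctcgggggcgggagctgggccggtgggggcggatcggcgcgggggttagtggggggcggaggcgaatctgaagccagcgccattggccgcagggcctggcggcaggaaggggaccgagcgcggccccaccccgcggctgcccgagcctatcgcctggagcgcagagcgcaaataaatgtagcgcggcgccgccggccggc
Ins1: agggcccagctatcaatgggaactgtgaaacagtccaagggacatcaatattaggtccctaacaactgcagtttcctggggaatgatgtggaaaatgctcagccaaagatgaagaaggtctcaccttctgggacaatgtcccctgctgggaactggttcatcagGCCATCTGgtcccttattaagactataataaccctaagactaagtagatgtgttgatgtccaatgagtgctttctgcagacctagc
Iapp: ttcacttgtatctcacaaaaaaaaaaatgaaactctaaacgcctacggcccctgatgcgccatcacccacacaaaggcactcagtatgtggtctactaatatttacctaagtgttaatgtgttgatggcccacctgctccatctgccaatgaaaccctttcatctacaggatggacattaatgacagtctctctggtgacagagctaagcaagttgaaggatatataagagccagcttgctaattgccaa

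The Sst window held TGACGTCA, which starts 48 bases before the gene start, and the Ins1 window held GCCATCTG, 86 bases before it. Neither motif was in the Hhex or the Iapp window. The homeodomain core TAAT, counted on both strands, occurred 1 time for Sst, 3 times for Ins1 and 5 times for Iapp. Among the 27025 genes with a promoter entry, 1.62% held TGACGTCA, 1.11% held GCCATCTG and 55.3% held TAAT in a window of the same length. These matches describe letters and not binding. TGACGTCA was in 2.16% of 1204 promoters of genes higher in delta cells and 2.74% of 1169 of genes lower, beside 2.77% of the 11038 tested genes with an entry. GCCATCTG was in 0.831% and 1.37%, beside 0.797%.

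Across all genes, 1980 of 17338 were higher in delta cells (11.4%) and 1580 were lower (9.11%) at an adjusted p under 0.05 in edgeR's quasi-likelihood test, and 13778 were not called. At an adjusted p under 0.01 and at least a 2-fold difference, 1144 were higher (6.6%) and 739 lower (4.26%). The median log2 fold change was 2.08 among genes higher in delta cells and -1.23 among genes lower, beside 0.05 over all genes tested. With genes at 0 counts in a group set to the bound that 3 counts over that group allow, these medians were 2.07, -1.23 and 0.05. A difference of more than 3 on the log2 scale was reached by 679 of the higher and 294 of the lower genes. Among genes called higher, 122 had 0 counts in all 3 beta libraries, and among genes called lower, 25 had 0 counts in all 3 delta libraries.

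The groups did not overlap for 98.2% of the called genes, beside 37.2% of all genes tested. Among the 1667 genes with a mean above 100 CPM, 304 were lower and 129 higher, and among the 4363 genes at 1 to 5 CPM, 211 were lower and 605 higher. Delta control 3 and beta control 2, which carry the same date, differed in the same direction as the groups for 1974 of the 1980 higher genes and 1578 of the 1580 lower genes. Both libraries belong to the groups tested, so this is a description within the date and not a second test.

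**Figure D2:**
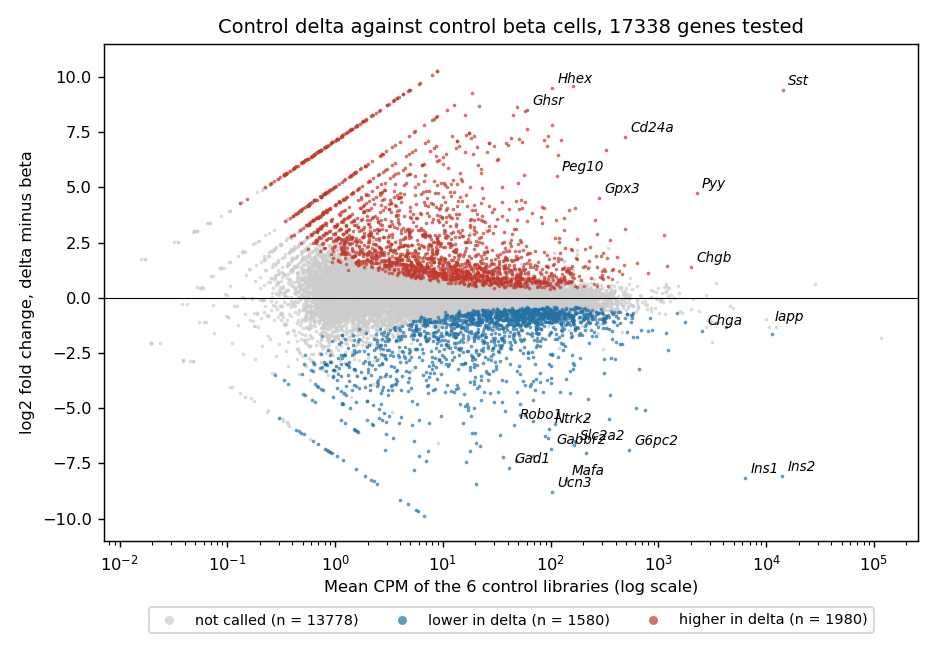
Each point is 1 of the 17338 genes tested, with the mean CPM of the 6 control libraries on a log axis and the log2 fold change of delta minus beta. The 1980 genes higher in delta cells (red) reach larger differences than the 1580 lower genes (blue), many of which lie at high levels; the diagonal rows at the left are genes with 0 counts in a group, whose fitted fold depends on the prior count.

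Hormone genes ranked first among single nuclear protein-coding genes in both cell types. The 30 hormone and secreted peptide genes summed to 49010, 51360 and 27950 CPM in delta and 60420, 56580 and 58330 CPM in beta libraries. Per transcript length, the most abundant protein-coding genes of the nuclear genome in delta cells were Sst at 27250 TPM, Pyy at 6516 TPM, Iapp at 4807 TPM and Ppy at 3326 TPM (a length-scaled unit, mean of 3). In beta cells they were Ins2 at 47910 TPM, Iapp at 11490 TPM and Ins1 at 7017 TPM. Of 15 tested hormone and secreted peptide genes, 5 (33.3%) were higher and 5 (33.3%) lower, against 11.4% and 9.11% of all genes. Their median log2 fold change was -0.97. That median was -0.27 without beta control 2, -0.47 without delta control 1, -1.46 without delta control 3 and -0.26 with the date in the file name as a fixed term. Pyy, which encodes peptide YY, stood at 5005, 5741 and 2326 CPM in delta and 179, 269.5 and 41.5 CPM in beta libraries, a log2 fold change of 4.74 (SE 0.57, adjusted p = 5.96e-06). Ppy, which encodes pancreatic polypeptide, was higher by 2.85 (SE 0.50, adjusted p = 0.000364), and Rbp4, a retinol carrier, by 6.70 (SE 0.40, adjusted p = 1.7e-09). Ghrl, the ghrelin gene, rested on delta control 2 (18.2 CPM, against 4.58 and 0.519 CPM in the other delta libraries), and its call at adjusted p = 0.0285 was lost without that library and without each beta library in turn, with adjusted p up to 0.492 over its alternatives.

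On the beta side, Ucn3, urocortin 3, which acts on delta cells through the receptor Crhr2, gave 0.382, 0.216 and 0.727 CPM in delta and 175, 203 and 240 CPM in beta libraries (log2 fold change -8.82, SE 0.76, adjusted p = 1.01e-07). Ins2 was lower by a log2 fold change of -8.08 (SE 0.99, adjusted p = 7.61e-06). Iapp, the amyloid polypeptide that is secreted with insulin, was abundant in both types: 4868, 7186 and 6308 CPM in delta and 13360, 15950 and 15920 CPM in beta libraries. The groups did not overlap, but the log2 fold change of -1.30 (SE 0.53) did not pass the test (adjusted p = 0.0972). Gcg, the glucagon gene of alpha cells, ran from 77.6 to 2263 CPM in delta and from 154 to 2977 CPM in beta libraries, and the groups overlapped (adjusted p = 0.689).

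Genes known to mark beta cells were lower as a group: 17 of 20 (85%) were lower in delta cells, against 9.11% of all genes. Their median log2 fold change was -5.46, and Iapp, Pdx1 and Cfap126 did not pass the test. Besides the hormones, Slc2a2, the glucose transporter GLUT2, stood at 1.34, 3.24 and 5.09 CPM against 149.8, 210.2 and 625 CPM (log2 fold change -6.67, SE 0.88, adjusted p = 1.63e-05). Among genes known to mark delta cells, 12 of 13 tested (92.3%) were higher, against 11.4% of all genes. Their median log2 fold change was 6.70, and Edn3 was not called. Ptprz1, a receptor tyrosine phosphatase, stood at 300.3, 311 and 364 CPM in delta libraries and at most 0.57 CPM in beta libraries (log2 fold change 9.60, SE 0.77, adjusted p = 4.59e-08). These lists rest on what is known of the types, so their direction is a check of the labels.

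Transcription factors were split: of 53 tested, 16 (30.2%) were higher in delta cells and 10 (18.9%) lower, against 11.4% and 9.11% of all genes. Their median log2 fold change was 0.25. Sox11, a SOX factor of developing neurons and endocrine progenitors, stood at 27.5, 29.0 and 39.5 CPM against 0, 0.234 and 0 CPM, a ratio of group levels of 353 (95% counting interval 97.4 to 2920). Neurog3, the factor that starts endocrine differentiation, stood at 51.9, 48.3 and 24.1 CPM against 0.997, 0.820 and 0 CPM (log2 fold change 6.02, SE 0.59, adjusted p = 5.35e-07). Delta control 3 was the lowest of the delta libraries for Neurog3, and all 3 lay far above the beta libraries. Sox9, a factor of pancreatic progenitors and duct cells, was at 23.8, 19.8 and 22.3 CPM against at most 0.585 CPM (5.88, SE 0.54, adjusted p = 1.96e-07). Etv1, an ETS factor, was higher by 3.52 (SE 0.30, adjusted p = 8.52e-08).

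Lower in delta cells was Nkx6-1, a homeobox factor that keeps beta cell identity, at 14.2, 12.9 and 17.02 CPM against 210.5, 232 and 427 CPM (log2 fold change -4.30, SE 0.36, adjusted p = 7.64e-08). Mnx1, another homeobox factor of beta cells, had 1 count in the delta libraries together and 10.97, 13.1 and 8.06 CPM in the beta libraries, a ratio of beta to delta levels of 321 (95% counting interval 57.1 to 12700). Pdx1, which acts in both beta and delta cells, gave 54.9, 48.3 and 70.1 CPM against 96.3, 97.4 and 119.9 CPM, with no overlap and no call (log2 fold change -0.86, SE 0.44, adjusted p = 0.189). Pax6, a pan-endocrine factor, had means of 370 ± 22.5 and 376 ± 36.8 CPM (SD, n = 3 each).

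Receptors for hormones and nutrients differed in both directions: of 48 tested, 13 (27.1%) were higher and 19 (39.6%) lower, against 11.4% and 9.11% of all genes. Their median log2 fold change was -0.03. That median was 0.05 under upper quartile scaling, -0.17 by limma-voom, -0.19 without delta control 3, 0.10 without beta control 3 and -0.31 with delta control 3 and beta control 1 left out together. Ghsr, the ghrelin receptor, stood at 104, 119.6 and 135 CPM in delta libraries and 0.427, 0.351 and 0.152 CPM in beta libraries (log2 fold change 8.50, SE 0.48, adjusted p = 1.04e-09). Ffar4, a receptor for long-chain fatty acids, stood at 26.9, 25.3 and 17.3 CPM against 0.712, 2.93 and 0.457 CPM (4.00, SE 0.49, adjusted p = 6.32e-06). Neither gene overlapped between the groups. Sstr1, a somatostatin receptor, was higher by 6.25 (SE 0.57, adjusted p = 1.96e-07) and Gfra1, a co-receptor for GDNF, by 5.64 (SE 0.46, adjusted p = 5.99e-08). Crhr2, the urocortin receptor, was detected in all delta libraries at 7.73, 7.57 and 2.28 CPM and in beta control 2 alone among the beta libraries at 0.117 CPM, so that the ligand Ucn3 and this receptor lay on opposite sides of the comparison.

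Ffar1, the fatty acid receptor that enhances insulin secretion, had the opposite pattern to Ffar4, at 0.668, 0.973 and 5.29 CPM in delta and 182, 169 and 175 CPM in beta libraries (log2 fold change -6.24, SE 0.49, adjusted p = 3.52e-08). Galr1, a galanin receptor, was lower by -6.13 (SE 0.75, adjusted p = 7.61e-06), and Ntrk2, the receptor TrkB, by -5.92 (SE 0.41, adjusted p = 1.02e-08). Ffar3, a receptor for short-chain fatty acids, had 3 counts in the delta libraries together and 12.96, 11.2 and 7.61 CPM in beta libraries, a ratio of beta to delta levels of 105 (95% counting interval 35.4 to 512). Glp1r, the receptor for the incretin GLP-1, was named after its values were seen: it stood at 119.7, 116 and 139.5 CPM in delta and 1216, 1076 and 1266 CPM in beta libraries (log2 fold change -3.25, adjusted p = 0.000193). Ghr and Nr3c1, the growth hormone and glucocorticoid receptors, gave log2 fold changes of -0.08 and 0.05 and were not called.

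Of 67 ion channel genes tested, 27 (40.3%) were higher and 12 (17.9%) lower in delta cells, against 11.4% and 9.11% of all genes, with a median log2 fold change of 0.58. Cacna1h, a T-type calcium channel that opens near the resting potential, stood at 132, 169.9 and 58.0 CPM against 0.997, 0.468 and 0.304 CPM (log2 fold change 7.64, SE 0.52, adjusted p = 7.15e-09). The auxiliary calcium channel subunits Cacna2d2 and Cacna2d3 were higher by 7.01 (SE 0.63, adjusted p = 1.55e-07) and 6.49 (SE 0.52, adjusted p = 4.68e-08). Kcnd2, an A-type potassium channel, stood at 25.5, 19.5 and 27.4 CPM against 0, 0.117 and 0.304 CPM, a ratio of 179 (95% counting interval 60.9 to 868). In the other direction, Kcnh6, a delayed rectifier of the ERG family, stood at 1.24, 1.73 and 3.22 CPM in delta and 84.3, 74.0 and 60.7 CPM in beta libraries (-5.14, SE 0.45, adjusted p = 1.23e-07). Trpm5, a cation channel opened by calcium, was lower by -4.72 (SE 0.52, adjusted p = 1.95e-06). Abcc8, the sulfonylurea receptor subunit of the channel that couples metabolism to excitability, was not called, at 1327 ± 492 and 945 ± 154 CPM (SD, n = 3 each; log2 fold change 0.49, SE 0.30).

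Of 41 tested genes of neurotransmitter reception, synthesis and transport, 13 (31.7%) were higher and 12 (29.3%) lower, against 11.4% and 9.11% of all genes. Their median log2 fold change was 0.12, and -0.25 without delta control 1. Gad1, the enzyme that makes GABA, stood at 0, 0 and 1.14 CPM in delta and 77.5, 58.8 and 111 CPM in beta libraries (-7.72, SE 0.85, adjusted p = 2.18e-06). Gabbr2, a subunit of the metabotropic GABA receptor, stood at 0.477, 0.973 and 3.74 CPM against 238, 200.3 and 164 CPM (-6.86, SE 0.65, adjusted p = 3.58e-07). The ionotropic GABA receptor subunit Gabrg1 lay the other way, with a ratio of 116 (95% counting interval 20.5 to 4610). Ddc, which makes dopamine and serotonin from their precursors, was lower by -5.17 (SE 0.39, adjusted p = 2.66e-08). Adra1a, an adrenergic receptor, and Ache, acetylcholinesterase, were higher by 5.57 (SE 0.70) and 5.01 (SE 0.54), with adjusted p = 9.31e-06 and 1.47e-06.

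Genes of glucose sensing and metabolic coupling were called lower in delta cells more often than higher. Of 43 tested, 14 (32.6%) were lower and 4 (9.3%) higher, against 9.11% and 11.4% of all genes. Their median log2 fold change was -0.38. The number lower was 9 without delta control 1 and 9 with delta control 3 and beta control 1 left out together. G6pc2, which turns glucose 6-phosphate back to glucose in the islet, stood at 2.10, 3.24 and 21.1 CPM against 822, 960.3 and 1365 CPM (-6.90, SE 1.03, adjusted p = 6.5e-05). Pcx, pyruvate carboxylase, was lower by -3.79 (SE 0.36, adjusted p = 4.07e-07) and Gpd2, of the glycerol phosphate shuttle, by -3.01 (SE 0.23, adjusted p = 2.66e-08). Slc2a3, the glucose transporter GLUT3, was higher, at 10.97, 12.3 and 11.1 CPM against 0.997, 1.29 and 0 CPM (3.82, SE 0.43, adjusted p = 2.7e-06), and Fbp1, a gluconeogenic enzyme, was higher by 2.38 (SE 0.47, adjusted p = 0.00115).

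Lipid synthesis, protein folding and respiration genes were called lower where they were called, with few exceptions. Of 37 cholesterol and fatty acid synthesis genes, 17 (45.9%) were lower and 2 (5.41%) higher, against 9.11% and 11.4% of all genes. Their median log2 fold change was -0.73, and 11 were lower without delta control 2 or without beta control 2. Fdps, of the mevalonate pathway, stood at 12.8, 11.03 and 13.9 CPM against 50.1, 46.2 and 44.3 CPM (-1.90, SE 0.25, adjusted p = 1.38e-05). Of 46 unfolded protein response and chaperone genes, 13 (28.3%) were lower and the other 33 were not called (median -0.57). Without beta control 3, 8 were lower. Ero1lb, an oxidase for disulfide bonds that is abundant in beta cells, stood at 30.5, 31.1 and 53.9 CPM against 693, 866 and 2076 CPM (-4.97, SE 0.43, adjusted p = 1.08e-07). Edem1, of ER-associated degradation, was lower by -1.80 (SE 0.23, adjusted p = 1.5e-05). Hspa5, the main ER chaperone BiP, was not called (-0.15, SE 0.31).

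Of 77 nuclear genes of oxidative phosphorylation, 11 (14.3%) were lower, against 9.11% of all genes, and 66 not called (median log2 fold change -0.39). That count was 24 with the date in the file name as a fixed term, 18 by DESeq2 and with no filter on low counts, 3 on log2(TPM + 1), 3 with delta control 3 and beta control 1 left out together, 5 without delta control 3, 4 without beta control 1 and 6 without beta control 2. Cox7a2l was lower by -1.09 (SE 0.19, adjusted p = 0.000405). Of the 13 mitochondrial genome transcripts, 4 were lower (median -1.16). The count was 10 when delta control 3 and beta control 1 were left out together and 7 without delta control 3. It was 1 without each of delta control 1, delta control 2, beta control 2 and beta control 3. All 13 transcripts were lower with GC content offsets (median -1.65) and with no filter on low counts. Of these transcripts, 8 were lower in a fit of the 6 libraries alone, 7 by DESeq2 and by limma-voom, and 2 on log2(TPM + 1). Their summed level was 21310, 16310 and 32310 CPM in delta and 36080, 47030 and 70110 CPM in beta libraries, without overlap, and was highest in beta control 3. Of 76 cytosolic ribosomal protein genes, 1 was lower, Rpl29 (-0.75, SE 0.22, adjusted p = 0.0211), and leaving out 1 library gave 0 to 7, the most without beta control 3. With the file-name date as a fixed term 12 were lower, and with no filter on low counts 10 were.

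The secretory machinery was partly shared. Of 36 genes of prohormone processing and granule content, 6 (16.7%) were higher and 10 (27.8%) lower, against 11.4% and 9.11% of all genes. Their median log2 fold change was -0.20. Chga and Chgb, the granins that fill secretory granules, lay on opposite sides. Chga stood at 1396, 1367 and 1233 CPM in delta and 3540, 3769 and 3840 CPM in beta libraries (-1.48, SE 0.27, adjusted p = 0.000549), and Chgb at 2422, 2158 and 4160 CPM against 1054, 1261 and 1030 CPM (1.39, SE 0.32, adjusted p = 0.00362). The call of Chgb was lost with delta control 3 and beta control 1 left out together (adjusted p = 0.0701), where 2 of the 36 genes of the list were higher. Slc30a8, the zinc transporter ZnT8 of insulin granules, was lower by -5.44 (SE 0.50, adjusted p = 2.05e-07). Gpx3, a secreted glutathione peroxidase, was higher at 587, 549.5 and 464 CPM against 28.2, 36.1 and 5.33 CPM (4.52, SE 0.44, adjusted p = 4.32e-07). Pcsk1, a prohormone convertase, was lower (-2.73, SE 0.73, adjusted p = 0.0112; adjusted p = 0.0516 without delta control 1), and Pcsk2, its partner, had means of 2050 ± 171 and 2140 ± 267 CPM (SD, n = 3 each) and was not called. The number of lower genes in this list was 6 without delta control 1.

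Of 71 exocytosis genes, 16 (22.5%) were higher and 15 (21.1%) lower, against 11.4% and 9.11% of all genes. Their median log2 fold change was -0.15, and within families the members divided. Syt1, the calcium sensor of fast synaptic release, stood at 77.6, 73.5 and 86.0 CPM in delta and 1.14, 0.703 and 0 CPM in beta libraries (6.94, SE 0.43, adjusted p = 1.95e-09). Stxbp5l, a tomosyn that binds syntaxin, was higher by 4.06 (SE 0.25, adjusted p = 1.7e-09). Sytl4, granuphilin, which docks insulin granules, stood at 2.19, 0.757 and 6.75 CPM against 324, 385 and 563 CPM (-7.03, SE 0.98, adjusted p = 3.3e-05). Cadps, a priming factor, was lower by -4.27 (SE 0.29, adjusted p = 7.15e-09), and Rims3, of the active zone, by -4.26 (SE 0.53, adjusted p = 8.46e-06). Cplx2, complexin, had means of 448 ± 119 and 471 ± 27.0 CPM (SD, n = 3 each) and was not called.

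Genes of cell contact and guidance were called higher in delta cells more often than lower. Of 54 axon guidance ligands and receptors, 26 (48.1%) were higher and 4 (7.41%) lower, beside 11.4% and 9.11% over all genes. Their median log2 fold change was 1.47. On log2(TPM + 1), 17 were higher and 3 lower, with a median of 0.32. The summed level of the 69 listed genes overlapped between the groups. It was 1775, 1788 and 1703 CPM in delta and 1712, 1467 and 1442 CPM in beta libraries. Nrp2, a semaphorin co-receptor, stood at 28.9, 28.9 and 38.2 CPM against 0.712, 0.234 and 0 CPM (6.60, SE 0.65, adjusted p = 4.93e-07). The ligands Efnb3 and Sema3e were higher by 4.98 (SE 0.35, adjusted p = 1.02e-08) and 4.40 (SE 0.33, adjusted p = 2.45e-08), and the ephrin receptor Ephb2 by 3.58 (SE 0.28, adjusted p = 4.28e-08). The Slit receptors lay the other way: Robo1 stood at 0.191, 1.73 and 3.11 CPM in delta and 95.4, 82.1 and 90.4 CPM in beta libraries (-5.74, SE 0.47, adjusted p = 6.21e-08), and Robo2 was lower by -2.10 (SE 0.22, adjusted p = 8.94e-07).

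Of 61 adhesion and synapse genes, 25 (41%) were higher and 10 (16.4%) lower, against 11.4% and 9.11% of all genes. Their median log2 fold change was 0.71, and 6 were lower without beta control 1. Dscam, Adgrl2 and Ncam2, cell surface proteins of neuronal contacts, were higher by 7.25 (SE 0.62), 7.24 (SE 0.59) and 7.15 (SE 0.63), with adjusted p = 1e-07, 5.15e-08 and 1.35e-07. Adgrl3, a latrophilin like Adgrl2, was lower by -5.08 (SE 0.47, adjusted p = 2.53e-07). Gjd2, the gap junction protein connexin 36, which couples beta cells, stood at 21.3, 28.2 and 33.2 CPM against 93.7, 121 and 147 CPM (-2.13, SE 0.31, adjusted p = 4.37e-05).

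Of 77 genes of Wnt, BMP, TGF-beta, FGF and Notch signalling, 26 (33.8%) were higher and 8 (10.4%) lower (median log2 fold change 0.47). Over all genes these shares were 11.4% and 9.11%. Bmp3, a ligand that opposes other BMPs, stood at 176, 184 and 259 CPM against 0.997, 1.29 and 0.304 CPM (7.83, SE 0.47, adjusted p = 1.7e-09). Smo, the transducer of signals of a further family, Hedgehog, was higher by 4.88 (SE 0.88, adjusted p = 0.000445). Bmp1, a protease of the extracellular matrix, was lower by -3.72 (SE 0.29, adjusted p = 3.51e-08), and Ror2, a Wnt5a receptor, by -3.97 (SE 0.51, adjusted p = 1.14e-05).

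Imprinted genes, expressed from 1 parental copy, were also called higher more often than lower. Of 30 tested, 14 (46.7%) were higher and 2 (6.67%) lower, against 11.4% and 9.11% of all genes. Their median log2 fold change was 0.65. Mest, paternally expressed, stood at 168, 181 and 219 CPM against 1.28, 1.29 and 0.913 CPM (7.32, SE 0.36, adjusted p = 3.06e-10). Sgce and Peg10, neighbours on chromosome 6, were higher by 6.28 (SE 0.30, adjusted p = 3.06e-10) and 5.52 (SE 0.51, adjusted p = 2.37e-07). Gnas, which encodes the stimulatory G protein subunit, stood at 1881, 1804 and 1622 CPM against 655, 735 and 576 CPM (1.43, SE 0.25, adjusted p = 0.000349). Nespas overlaps Gnas on the opposite strand, and whether the counting used strand is not given, so its log2 fold change of 7.48 (SE 0.83) cannot be told apart from reads of Gnas. Igf2 and its receptor Igf2r were lower, by -2.72 (SE 0.58, adjusted p = 0.00201) and -0.85 (SE 0.16, adjusted p = 0.000611).

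**Figure D3:**
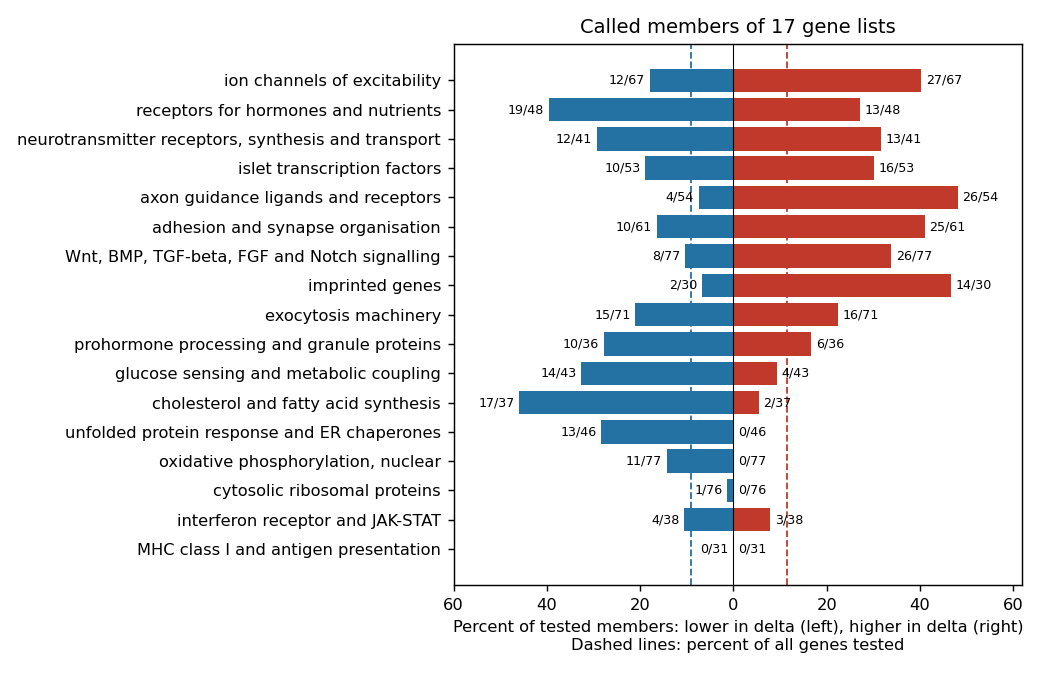
Bars give the percent of tested members of 17 gene lists that were lower (blue, left) or higher (red, right) in delta cells at an adjusted p under 0.05, with the counts at the bar ends and dashed lines at the shares over all genes, 9.11% and 11.4%. Axon guidance, imprinted, adhesion and ion channel lists extend further to the right, and cholesterol and glucose sensing lists to the left. The receptor list extends to both sides.

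The study asks how these cells respond to IFNγ, so the untreated levels of the pathway were described. Of 38 genes of interferon reception and JAK-STAT signalling, 3 (7.89%) were higher and 4 (10.5%) lower, near the 11.4% and 9.11% of all genes. Their median log2 fold change was 0.05. The counts were 1 and 1 without beta control 1, 1 and 2 without delta control 2, 1 and 2 with delta control 3 and beta control 1 left out together, and 1 and 3 without delta control 3 or without beta control 2. The receptor subunits Ifngr1 and Ifngr2 were not called, at 13.4 ± 1.97 against 12.3 ± 1.68 CPM and 7.01 ± 0.864 against 9.57 ± 2.34 CPM (SD, n = 3 each). Ifnlr1, a receptor chain for type III interferons, was higher at 4.29, 6.81 and 5.71 CPM against 1.14, 1.17 and 0.761 CPM (2.42, SE 0.49, adjusted p = 0.00136). Ptpn1, a phosphatase that acts on JAK kinases, was lower by -1.04 (SE 0.22, adjusted p = 0.0018). Irf1 and Cd274, the gene for PD-L1, had log2 fold changes of -0.03 (SE 0.21) and -0.18 (SE 0.28) and were not called.

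Of 31 tested genes of MHC class I and antigen presentation, 0 were called by edgeR and by limma-voom. At an unadjusted p under 0.05 there were 2 higher and 2 lower, and DESeq2 called 1 and 1. The median log2 fold change was -0.14. By edgeR, 1 was higher and 4 lower with the file-name date as a fixed term (median -0.41), 1 was higher and 1 lower with no filter on low counts, and 1 was higher with GC content offsets. Leaving out delta control 3, alone or together with beta control 1, gave 1 lower. Of 16 genes for proteins that are autoantigens in type 1 diabetes, 6 (37.5%) were lower in delta cells and 2 (12.5%) higher (median -0.66). Over all genes these shares were 9.11% and 11.4%. The lower genes were Ins1, Ins2, Gad1, G6pc2, Slc30a8 and Chga. Those higher were Ica1 and Gad2, the other isoform of glutamate decarboxylase, which was named after its values were seen. Ica1 was higher by 0.65 (SE 0.20, adjusted p = 0.0301), a call lost under 8 alternatives. Gad2 was at 0.668, 0.324 and 0.934 CPM in delta and 0, 0.117 and 0 CPM in beta libraries, the latter from 1 count (ratio 14.3, 95% counting interval 2.28 to 595; adjusted p = 0.0475). Neither gene was called without delta control 1, delta control 2, delta control 3 or beta control 2. Ptprn, the autoantigen IA-2, had means of 723 ± 231 and 791 ± 82.5 CPM (SD, n = 3 each) and was not called.

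Transcripts of the sorting markers followed the gate for CD24. Cd24a stood at 842, 808 and 1279 CPM in delta and 7.55, 7.49 and 3.65 CPM in beta libraries (log2 fold change 7.28). The gate selected on its protein, so this level is no independent result. Tfrc, the gene for CD71, by which beta cells were selected, overlapped between the groups at 89.8, 85.5 and 139 CPM against 84.9, 116 and 161 CPM (adjusted p = 0.692). Epcam, used for both gates, was higher in delta cells, at 252, 278 and 383 CPM against 122, 109.9 and 104 CPM (1.45, SE 0.21, adjusted p = 5.02e-05).

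Transcripts of other pancreatic cell types were present in the sorted libraries. In bulk samples, fewer cells of a type and less RNA per cell cannot be told apart. The 10 polypeptide and ghrelin cell markers summed to 7676, 8700 and 4069 CPM in delta and 492, 791 and 147 CPM in beta libraries, and 6 of the 6 tested were higher in delta cells, Pyy and Ppy among them. Duct markers summed to 2013, 1723 and 1954 CPM against 1166, 888 and 700.4 CPM. Of 19 tested, 8 (42.1%) were higher, against 11.4% of all genes, and Krt7 was lower. Those higher included Sox9, Clu (3.11, SE 0.49, adjusted p = 0.000121) and Tspan8 (3.61, SE 0.30, adjusted p = 5.88e-08), while the duct markers Spp1 and Krt8 overlapped between the groups and were not called.

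Acinar markers summed to 1823, 2058 and 3926 CPM in delta libraries and to 2842, 166 and 51.4 CPM in beta libraries, of which beta control 1 stands apart and beta control 3 had 25 of the 32 genes at 0. Of 27 tested, 2 (7.41%) were higher and 1 (3.7%) lower, against 11.4% and 9.11% of all genes. Without beta control 1, 26 were higher, and with delta control 3 left out as well, 24 were. With every library kept, 22 were higher by limma-voom, 10 on log2(TPM + 1) and 21 of 32 with no filter on low counts. By DESeq2, under upper quartile scaling and with GC content offsets, 2 were higher. Amy2a5, pancreatic amylase, stood at 391.8, 546 and 755 CPM against 318, 35.6 and 0 CPM. Alpha markers, Gcg among them, summed to 319.6, 532 and 2651 CPM against 1438, 3371 and 430.5 CPM and overlapped. Mesenchymal and Schwann markers summed to 31.4 to 53.0 CPM against 10.4 to 13.9 CPM. Endothelial markers summed to 7.58 to 9.83 CPM against 3.35 to 6.27 CPM, and immune markers to 8.62 to 17.7 CPM against 5.48 to 7.98 CPM. Vim, vimentin, was at 11.1, 11.7 and 12.9 CPM in delta and 0 in every beta library, which makes it at least 87.4-fold higher by a floor of 3 counts over the group. The part of polypeptide, duct, acinar and other cells in the differences above was not tested.

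Delta control 3 and beta control 1 held the most acinar marker RNA of their groups. They also differed in base composition: the relative log2 level of genes low in GC content minus that of genes high in it was -0.106, -0.056 and 0.871 in delta and -0.711, -0.282 and 0.225 in beta libraries, the highest in delta control 3 and the lowest in beta control 1. With GC content offsets in the fit, 2363 genes were higher and 2058 lower, of which 1874 and 1490 were also called without the offsets. Beyond that, the part of base composition in the differences was not tested. With delta control 3 and beta control 1 left out together, 1409 genes were higher and 1144 lower. Of these, 1295 and 964 were among those called with every library. The counts without them were 22 higher and 7 lower of the adhesion list, 23 and 3 of the axon guidance list, 24 and 9 of the ion channel list, 12 and 17 of the receptor list, 14 and 9 of the transcription factor list, 12 and 2 of the imprinted list, and 14 lower of the cholesterol and fatty acid list. Beta control 3 alone left out gave 1683 higher and 1380 lower.

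**Figure D4:**
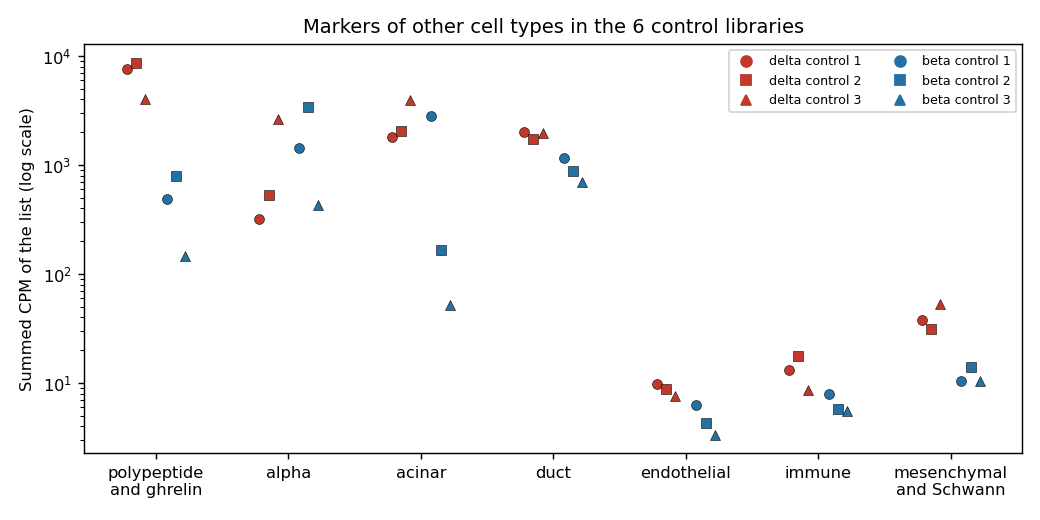
Summed CPM of 7 marker lists for other cell types, on a log axis, with 1 symbol for each control library (red delta, blue beta). Polypeptide and ghrelin, duct, endothelial, immune, and mesenchymal and Schwann sums lie higher in the 3 delta libraries. Acinar sums span 51.4 to 2842 CPM within the beta libraries, and alpha sums overlap.

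Proliferation genes summed to 915, 1037 and 1185 CPM in delta and 1489, 1685 and 1488 CPM in beta libraries, without overlap. Of 26 tested, 9 (34.6%) were lower in delta cells, against 9.11% of all genes (median log2 fold change -1.41). The counts were 4 lower and 1 higher without beta control 2, 1 lower on log2(TPM + 1) and 15 lower with no filter on low counts. Mki67, a marker of dividing cells, stood at 0.573, 0 and 7.06 CPM in delta and 20.5, 96.2 and 6.24 CPM in beta libraries, where beta control 2 stands apart and the groups overlap. Its call (adjusted p = 0.0308) was lost without beta control 2, delta control 1 or delta control 2, with adjusted p up to 0.232. Spc25, a kinetochore gene, stood at 3.53, 3.57 and 9.03 CPM against 94.3, 132 and 168 CPM (-4.61, SE 0.37, adjusted p = 4.59e-08). It was highest in beta control 3, where Mki67 was lowest among the beta libraries. Of 35 immediate early and dissociation genes, 4 (11.4%) were higher and 3 (8.57%) lower, against 11.4% and 9.11% of all genes. Their median was -0.33, and it was 0.06 without beta control 3 and 0.05 with the file-name date as a fixed term. Ier2, an early response gene, was higher by 2.44 (SE 0.57, adjusted p = 0.00418), and Egr1, another, ran from 219 to 538 CPM in delta and from 78.2 to 428 CPM in beta libraries and was not called.

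Some of the largest differences lay outside these gene lists. Gap43, a protein of growing axons, stood at 39.2, 30.3 and 41.4 CPM in delta libraries and had 1 count in the beta libraries together, a ratio of 822 (95% counting interval 147 to 32500). Hgf, hepatocyte growth factor, stood at 20.0, 22.8 and 32.8 CPM with 1 count in the beta libraries, a ratio of 556 (99.4 to 22000). Slc16a7, the pyruvate and lactate transporter MCT2, stood at 79.0, 92.0 and 117 CPM against 0.285, 0.234 and 0.152 CPM (8.65, SE 0.45, adjusted p = 1.55e-09). Gpm6a, a neuronal membrane protein, and F5, coagulation factor V, were higher by 8.48 (SE 0.51) and 8.29 (SE 0.53), with adjusted p = 1.7e-09 and 3.56e-09. On the beta side, Emilin1, an elastin-associated protein, stood at 0.668, 0.108 and 0.623 CPM against 72.4, 62.4 and 82.3 CPM (-7.21, SE 0.63, adjusted p = 1.15e-07). St8sia1, a ganglioside synthase, was lower by -7.39 (SE 0.57, adjusted p = 3.13e-08), and Msln, mesothelin, by -6.94 (SE 0.78, adjusted p = 2.7e-06).

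The same types were also sorted from islets exposed to IFNγ, in libraries that share none with the controls. There 3195 genes were higher in delta than in beta cells (18.4%) and 3114 lower (18%). On log2(TPM + 1) the split was 1632 higher and 3502 lower, and with the file-name date as a fixed term it was 660 and 464. Of the 1980 genes higher in control delta cells, 1635 were also called higher with IFNγ, 82.6% of the control list and 51.2% of the IFNγ list. Of the 1580 lower genes, 1404 were also lower, 88.9% and 45.1%. The direction was the same for 1967 and 1573 of them, and 0 genes were called in opposite directions at an adjusted p under 0.05 in each. The test of whether the delta to beta difference changed with IFNγ called 0 genes by edgeR and 0 by limma-voom, with 822 and 730 genes at an unadjusted p under 0.05. Among the members named above, the log2 fold change with IFNγ was 8.96 for Sst, 10.55 for Hhex, -10.12 for Ins1, -10.01 for Mafa, 8.73 for Ghsr, 6.84 for Cacna1h, -6.60 for Robo1 and 6.77 for Mest. The sources used here do not say whether control and IFNγ cells came from the same sorts.

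**Figure D5:**
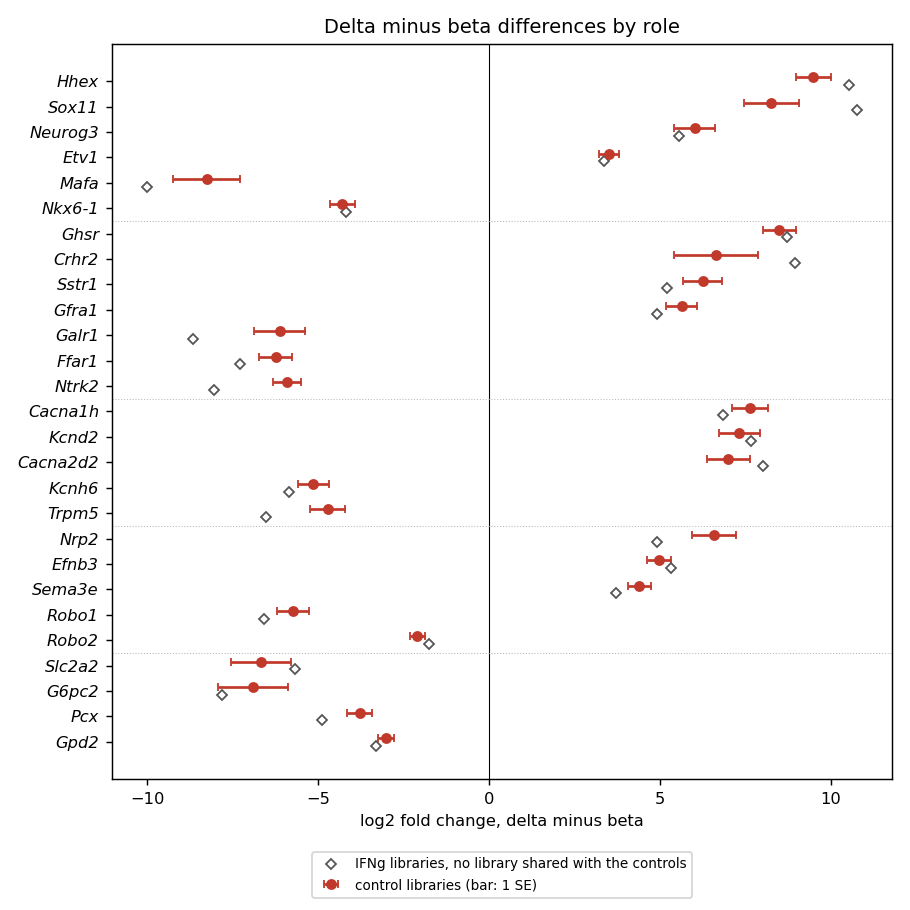
Log2 fold changes of delta minus beta for 27 genes grouped by role, from top to bottom transcription factors, receptors, ion channels, guidance genes and metabolic genes. Filled points are the control libraries with 1 SE, and open diamonds are the IFNγ libraries, which lie on the same side of 0 for each gene shown.

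Alpha cell controls, sorted as cells low for CD24 and negative for CD71, placed the differences among 3 types. Of the 1144 genes at least 2-fold higher in delta cells, the alpha mean lay nearer the beta mean on a log scale (with 0.5 CPM added) for 661 and nearer the delta mean for 483. Of the 739 genes at least 2-fold lower, the alpha mean lay nearer the delta mean for 410 and nearer the beta mean for 329. Hhex had 0 and Ghsr 0.084 CPM in alpha cells, near beta cells. Peg10 had 394 CPM and Etv1 404 CPM in alpha cells, near delta cells, while Cadps had 188 CPM, near beta cells.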

How the data were processed

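RNA from sorted cells (5 ng, RNeasy Micro) was made into Ovation Solo libraries, a random-primed, strand-specific kit, and sequenced as 75-base pairs. Per the labels and methods, the authors aligned reads with STAR 2.5.2b to GRCm38.p6 and quantified genes with RSEM, whose version and strand setting are not given in the sources used here; their tests used DESeq2 1.32.0 in a model with a batch term. The labels give no batch, so the date in the file name was an alternative only. The deposited values are expected counts per gene for each library, with TPM and FPKM beside them, also made by the authors. FPKM was not used, and TPM served for levels per length and 1 alternative.

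Expected counts were rounded to whole numbers. Genes were kept by filterByExpr (minimum count 10), scaled by TMM and fitted with edgeR 4.0.16's quasi-likelihood test over all 18 libraries with a mean per group, so that groups share 1 estimate of the spread. Calls used a Benjamini-Hochberg adjusted p under 0.05. The SE is the absolute log2 fold change divided by the square root of F. R 4.3.3, limma 3.58.1 and DESeq2 1.42.0 were used for alternatives. The fit was tested on simulated data. Counting intervals (95%, exact) and the floor of 3 counts cover counting error only.

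Gene positions came from GENCODE release 21, which matched 99.5% of the 55487 gene IDs; the methods name release 23. Genes were named by rule: a set of 22 markers, the 14 largest rises and falls at 20 CPM or more without overlap, the 6 largest CPM differences each way, and in each of 32 lists up to 4 called members each way at 5 CPM or more and 2 members not called. Members and lists were chosen with earlier results of these data known. Replicates are separate samples per the study, and p-values measure the spread between them. Alternatives were other scalings, tests, filters, GC content offsets, the date in the file name, the replicate number, TPM and leaving out libraries.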

Additional observations from a re-analysis of the deposited data

How the results depend on the processing

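None of the named genes past the threshold changed direction in the alternatives that tested it, and 126 of the 162 kept their call in all of those. Hormone genes such as Sst, Ins1 and Ins2 were not tested where hormone genes were removed, and named genes that were not called, such as Irf1 and Pax6, could change sign near 0. With the date in the file name as a fixed term, 1797 genes were higher and 1455 lower, of which 1234 of the 1980 and 1031 of the 1580 were shared, 760 genes were at least 2-fold higher, and with IFNγ 660 were higher and 464 lower. On log2(TPM + 1), 1175 genes were higher, 906 lower, 532 at least 2-fold higher and 471 at least 2-fold lower in control delta cells, and 1632 were higher with IFNγ. The date term takes up delta control 1, delta control 2, beta control 3, delta IFNγ 2 and delta IFNγ 3, each alone on its date. The control contrast then rests on delta control 3 against beta controls 1 and 2. With IFNγ, the delta side rests on delta IFNγ 1 alone. The cause of these changes in number was not tested. Leaving out 1 library gave 1509 to 1778 higher, 1175 to 1380 lower, 889 to 1030 at least 2-fold higher and 553 to 650 at least 2-fold lower, and with IFNγ 2358 to 3094 higher and 2320 to 2968 lower. Upper quartile scaling gave 2276 higher and 1303 lower. GC content offsets moved the median of all genes with IFNγ by 0.12 and called 3 genes the other way there. With the replicate number as a block, 1980 were higher, 1628 lower, 1116 and 748 at least 2-fold higher and lower, and with IFNγ 3199 and 3220. Same-numbered delta and beta controls had correlations of their deviations of 0.0968, -0.058 and 0.101. Delta control 3 and beta control 2, which share a date, had 0.049, so these values cannot settle whether the numbers pair the samples. The depth of 6584262 to 8809998 counts limits statements on genes below about 1 CPM.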

Other observations

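Transcripts annotated as TEC, loci that await experimental evidence, were called higher in delta cells more often than lower: of 1399 tested, 17.9% were higher and 2.07% lower, with a median log2 fold change of 0.70. They took 0.925%, 0.938% and 0.582% of counts in the delta and 0.433%, 0.484% and 0.689% in the beta libraries, so the groups overlapped. Of 415 long intergenic noncoding RNAs, 14.9% were higher and 7.71% lower. Among 13208 protein-coding genes, 11.4% were higher and 10.9% lower, with a median of -0.02.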
